A study of Mus musculus with 59 samples.

Results

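The chemokine and chemokine receptor genes were taken as every protein-coding RefSeq gene of the mouse genome build mm10 whose symbol begins with Ccl, Cxcl, Ccr, Cxcr, Cx3cl or Cx3cr and a digit. There were 56 such genes, of which 55 lie on the assembled chromosomes among 21774 protein-coding genes and 1, Ccl21c, lies on an unplaced sequence where no peak was listed. ChIP-seq, which maps where a protein sits on DNA, had been run on livers of male mice for 3 transcription factors, the repressor BCL6 and the fatty acid receptors PPARα and PPARδ. For each factor 1 peak list came from wild-type C57BL/6 mice fed ad libitum and 1 from wild-type C57BL/6 mice fasted overnight. A further list held BCL6 peaks of fed Bcl6 fl/fl mice, also on C57BL/6, which carry loxP sites in Bcl6, are described as wild type and are the controls of a hepatocyte knockout. Each of these 7 lists summarises 3 animals in 1 set of positions, so no spread between animals could be computed, no difference was tested, and every interval below is a 95% Wilson interval of counting error alone, not adjusted for the number of shares. The lists give no read depth or peak height, and peaks near 1 gene are not independent of each other.

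Chemokines are small secreted proteins that draw leukocytes along a gradient by binding G protein-coupled receptors on the cell surface. The CC, CXC and CX3C families are named by the spacing of their first cysteines, and many of the genes lie side by side in clusters that arose by duplication. In liver, Ccl2 is known for recruiting monocytes through Ccr2, Cxcl1 and Cxcl2 for recruiting neutrophils through Cxcr2, Cxcl9 and Cxcl10 for recruiting T cells through Cxcr3, and Cxcl12 for retaining cells through Cxcr4. Most of the receptors are carried by leukocytes, while several ligands can be made by hepatocytes, Kupffer cells, stellate cells and endothelium. In whole liver a missing peak therefore cannot separate a factor that is absent from DNA in hepatocytes from a rarer cell type that contributes too little chromatin.

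A peak was assigned to the gene with the nearest transcription start site (TSS) of a protein-coding transcript within 100 kb, and peaks of the 7 lists whose centers lay within 200 bp were joined into 1 site. Of 40474 sites in all lists, 35227 had a protein-coding gene within reach and 56 belonged to chemokine and receptor genes. The sequences below are shown because they hold sites that many lists shared, that lay at a promoter or that carry a BCL6 element. All are RefSeq sequence of GRCm38.p6, whose chromosome coordinates are those of mm10, written 5′ to 3′ on the strand of the gene, without untranslated exons. Capitals mark matches, on either strand, to 1 of 5 motifs, namely the BCL6 element TTCCTAGAA with at most 1 mismatch, the PPAR element DR1 (the half-site AGGTCA repeated after 1 base) with at most 2 mismatches, the HNF6 motif TATTGAT, the FOXA motif TGTTTAC and the NF-κB consensus, the last 3 without mismatch. A match is a description of the letters and not evidence of binding.

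The promoters, the 250 bases before the TSS, were taken from RefSeq for the 4 genes that had an entry and a called peak there.
Ccl9 promoter (chr11:83578637-83578886, minus strand): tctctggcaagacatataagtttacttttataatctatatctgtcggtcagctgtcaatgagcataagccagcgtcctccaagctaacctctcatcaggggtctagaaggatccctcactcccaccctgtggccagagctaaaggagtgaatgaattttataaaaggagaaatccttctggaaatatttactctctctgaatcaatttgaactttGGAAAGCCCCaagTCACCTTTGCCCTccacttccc
Cxcl1 promoter (chr5:90890995-90891244, plus strand): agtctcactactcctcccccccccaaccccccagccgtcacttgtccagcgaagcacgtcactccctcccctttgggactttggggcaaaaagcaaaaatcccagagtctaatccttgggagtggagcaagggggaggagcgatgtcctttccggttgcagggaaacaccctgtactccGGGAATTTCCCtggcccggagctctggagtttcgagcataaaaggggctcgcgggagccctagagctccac
Cxcl10 promoter (chr5:92348890-92349139, minus strand): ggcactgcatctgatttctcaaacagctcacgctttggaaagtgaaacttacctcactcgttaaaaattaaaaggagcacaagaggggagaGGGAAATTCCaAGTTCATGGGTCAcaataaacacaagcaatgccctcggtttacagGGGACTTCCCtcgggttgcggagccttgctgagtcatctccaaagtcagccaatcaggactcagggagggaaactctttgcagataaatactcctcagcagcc
Cxcl12 promoter (chr6:117168285-117168534, plus strand): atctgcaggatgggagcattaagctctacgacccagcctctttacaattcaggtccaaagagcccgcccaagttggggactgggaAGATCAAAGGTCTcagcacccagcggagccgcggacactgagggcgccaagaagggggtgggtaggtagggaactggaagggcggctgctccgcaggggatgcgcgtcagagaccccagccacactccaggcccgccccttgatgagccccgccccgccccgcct
In the Ccl9 promoter the capitals mark an NF-κB match at bases 216 to 225 and a DR1 match at bases 229 to 241, counted from 1 at the first printed base. In Cxcl1 they mark overlapping NF-κB matches on both strands at bases 180 to 190. In Cxcl10 they mark NF-κB matches at bases 92 to 101 and 148 to 157 and a DR1 match at bases 103 to 115, and in Cxcl12 a DR1 match at bases 86 to 98. Over 32851 RefSeq promoters cut to the same 250 bases, 3.90% held an NF-κB match, 3.24% a DR1 match and 7.46% a BCL6 match.

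The other sequences are 200-base windows on the centers of sites outside these promoters, first, for each gene, the site nearest its TSS among those called in 5 or 6 lists.
Cxcl12 intron 1 (chr6:117170040-117170239, plus strand): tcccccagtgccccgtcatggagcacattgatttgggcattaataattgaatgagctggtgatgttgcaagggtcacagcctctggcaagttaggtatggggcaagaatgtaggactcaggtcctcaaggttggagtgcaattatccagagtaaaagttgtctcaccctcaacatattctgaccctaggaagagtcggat
Cxcr1 intronic (chr1:74192870-74192993, minus strand): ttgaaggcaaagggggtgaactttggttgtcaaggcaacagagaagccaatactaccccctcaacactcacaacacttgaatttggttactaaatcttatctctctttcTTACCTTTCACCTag
Cxcr5 upstream (chr9:44537737-44537936, minus strand): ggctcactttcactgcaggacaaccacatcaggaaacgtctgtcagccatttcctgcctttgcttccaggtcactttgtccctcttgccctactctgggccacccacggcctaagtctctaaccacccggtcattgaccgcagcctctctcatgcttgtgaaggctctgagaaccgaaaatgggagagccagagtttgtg
Cxcl1 upstream (chr5:90872516-90872715, plus strand): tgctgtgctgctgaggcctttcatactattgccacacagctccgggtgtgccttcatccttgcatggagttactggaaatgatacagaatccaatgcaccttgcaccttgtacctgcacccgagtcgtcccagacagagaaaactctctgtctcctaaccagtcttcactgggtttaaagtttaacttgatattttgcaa
Cxcl14 far upstream (chr13:56354706-56354905, minus strand): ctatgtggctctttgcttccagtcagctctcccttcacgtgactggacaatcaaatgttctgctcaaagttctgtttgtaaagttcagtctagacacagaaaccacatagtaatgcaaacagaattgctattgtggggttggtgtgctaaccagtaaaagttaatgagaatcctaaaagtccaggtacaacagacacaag
Cxcl12 intron 2 (chr6:117172501-117172700, plus strand): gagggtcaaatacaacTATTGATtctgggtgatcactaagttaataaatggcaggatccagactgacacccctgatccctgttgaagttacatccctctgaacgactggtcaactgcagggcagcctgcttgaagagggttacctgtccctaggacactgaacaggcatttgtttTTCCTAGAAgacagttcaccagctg
Cxcl9 intron 1 (chr5:92327319-92327518, minus strand): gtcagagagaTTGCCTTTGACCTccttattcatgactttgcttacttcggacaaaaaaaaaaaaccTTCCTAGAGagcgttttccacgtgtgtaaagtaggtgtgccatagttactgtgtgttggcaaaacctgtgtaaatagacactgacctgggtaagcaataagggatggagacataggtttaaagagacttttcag
The Cxcr1 window is shortened to its longest stretch outside annotated untranslated exons, 124 bases, and holds a DR1 match at bases 110 to 122. The windows of Cxcl12 intron 1, Cxcr5, Cxcl1 and Cxcl14 held no match to any of the 5 motifs. The last 2 windows were added after the calls and motifs had been seen, as the sites with a BCL6 element that all 3 BCL6 lists called. The Cxcl12 intron 2 window has an HNF6 match at bases 17 to 23 and a BCL6 element without mismatch at bases 176 to 184. The Cxcl9 intron 1 window has a BCL6 element with 1 mismatch at bases 67 to 75 and a DR1 match at bases 11 to 23. A Cxcl9 site called in 6 lists lies in the 3′ untranslated region of the gene and is not printed.

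Of the 55 genes on chromosomes, 22 had at least 1 site in any list, or 40.0% (28.1 to 53.2%), beside 49.9% of all protein-coding genes. The sites were unevenly spread. Ccl2 held 7, Cxcl1 and Cxcl12 held 5 each, and Ccl9, Cxcl10, Cxcl17 and Cxcr1 held 4 each. With the 3 sites of Cxcl9 these 8 genes held 36 of the 56 sites, or 64.3%. The 8 were picked for their number of sites, and no matching share was computed over all protein-coding genes. The remaining genes had 1 or 2 sites.

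**Figure D1:**
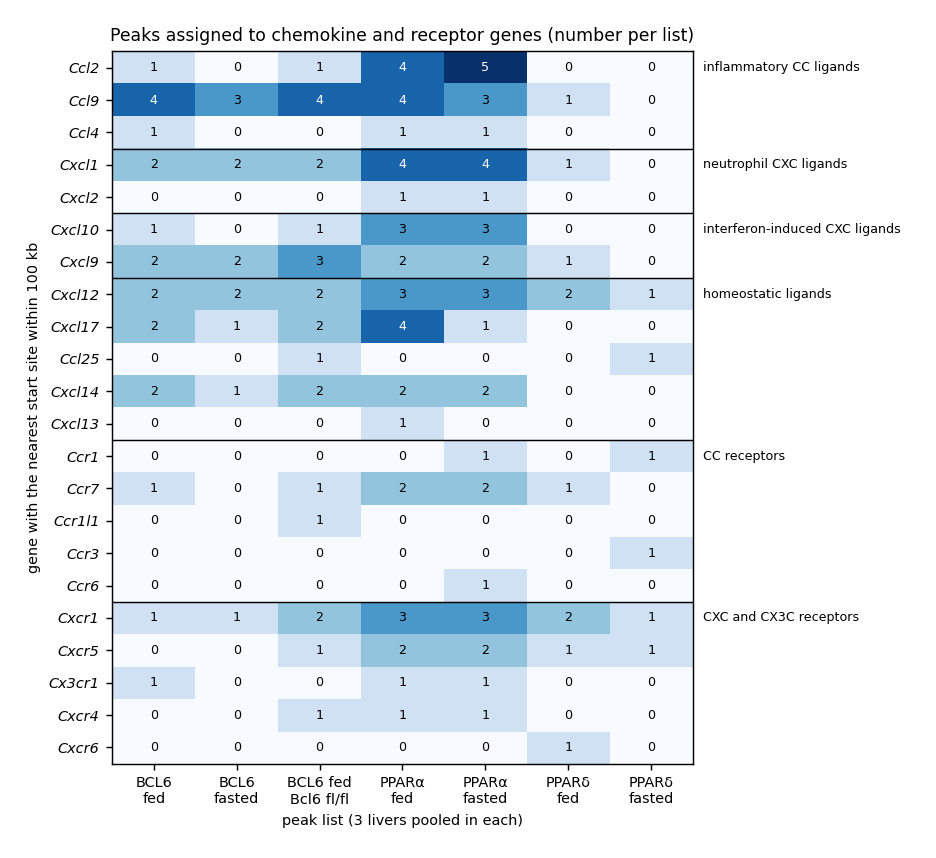
Number of peaks of each list (columns, 3 livers pooled in each) assigned to each chemokine or receptor gene with a site (rows, grouped by role). Ccl9 and Cxcl12 carried peaks of every factor, Ccl2 held 4 fed and 5 fasted PPARα peaks, and Cxcl17 went from 4 fed PPARα peaks to 1 fasted peak.

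BCL6 peaks lay nearest to 12 of the 55 genes in fed C57BL/6 livers (21.8%, 12.9 to 34.4%), beside 26.0% of all protein-coding genes, and to 7 in fasted livers (12.7%, 6.30 to 24.0%), beside 19.1%. Fed Bcl6 fl/fl livers had BCL6 peaks at 14 of the genes (25.5%, 15.8 to 38.3%), beside 28.7%. PPARα peaks lay nearest to 16 genes in fed livers (29.1%, 18.8 to 42.1%), beside 32.2%, and to 17 in fasted livers (30.9%, 20.3 to 44.0%), beside 43.4%. PPARδ peaks lay nearest to 8 genes in fed livers (14.5%, 7.56 to 26.2%), beside 17.1%, and to 6 in fasted livers (10.9%, 5.10 to 21.8%), beside 7.79%. In all 7 lists the share over all genes fell inside the interval of the chemokine and receptor genes.

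Genes in tight clusters can collect fewer peaks because little of the genome is nearest to them, so the peaks were also counted per Mb. The chemokine and receptor genes had 2.88 Mb of sequence nearest to their TSSs within 100 kb, with a median of 39.6 kb per gene against 48.4 kb over all protein-coding genes. Genes with a site had a median of 53.3 kb and genes without one 35.0 kb. Fed BCL6 peaks numbered 6.95 per Mb near these genes and 7.97 per Mb near all protein-coding genes, and fasted BCL6 peaks 4.17 and 5.06. For PPARα the order turned with feeding state, but the densities carry no interval and those of these genes rest on 38 fed and 36 fasted peaks. Fed PPARα peaks numbered 13.2 per Mb near chemokine and receptor genes against 11.4 near all genes, and fasted PPARα peaks 12.5 against 15.9. PPARδ peaks numbered 3.47 against 3.96 per Mb in fed livers and 2.08 against 1.29 in fasted livers, the latter from 6 peaks. Near the 83 interleukin and interleukin receptor genes, another set of immune genes, fed PPARα peaks numbered 9.90 and fasted PPARα peaks 12.3 per Mb.

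**Figure D2:**
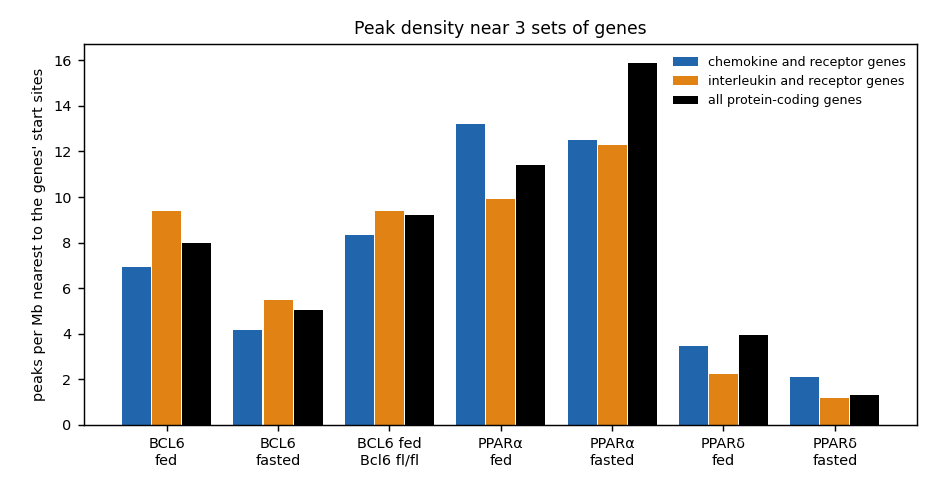
Peaks per Mb of sequence nearest to the start sites of chemokine and receptor genes, interleukin and receptor genes and all protein-coding genes (bars) in each of the 7 lists. For PPARα the chemokine bar stands above the bar of all genes in the fed list, 13.2 against 11.4, and below it in the fasted list, 12.5 against 15.9.

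The comparison of feeding states asks whether binding of each factor at these genes moved with fasting as it did elsewhere in the genome. BCL6 peaks assigned to the chemokine and receptor genes went from 20 fed to 12 fasted, a change of -40.0%, beside -36.6% over all assigned peaks. Of the 12 genes with a BCL6 peak in C57BL/6 livers 8 had fewer in the fasted list, 4 had as many and 0 had more. No such count was made over all genes. Ccl2, Ccl4, Ccr7, Cx3cr1 and Cxcl10 had a BCL6 peak in the fed but not the fasted list, while Ccl9, Cxcl1, Cxcl9, Cxcl12, Cxcl14, Cxcl17 and Cxcr1 had BCL6 peaks in both. The fed peaks of Ccl2, Ccl4, Ccr7, Cx3cr1 and Cxcl10 were also missing from the list of fed Bcl6 fl/fl livers. Of the 20 fed peaks 11 had a fasted peak within 200 bp (55.0%, 34.2 to 74.2%), beside 50.4% of all assigned fed BCL6 peaks. Of the 12 fasted peaks 11 had a fed peak (91.7%, 64.6 to 98.5%), beside 79.4%. The fasted peak without a fed partner was the site 18630 bp upstream of Cxcl1, where fed Bcl6 fl/fl livers also had a BCL6 peak.

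PPARα peaks near these genes went from 38 fed to 36 fasted, a change of -5.26%, whereas all assigned PPARα peaks rose in number from 18539 to 25841, a change of 39.4%. Of the 18 genes with a PPARα peak, 12 had equal numbers in both lists, again without a count over all genes. Equal numbers did not always mean the same sites, since Cxcl2 had a fed peak 4422 bp and a fasted peak 3514 bp upstream. Cxcl17, Ccl9 and Cxcl13 had fewer in the fasted list and Ccl2, Ccr1 and Ccr6 had more. Cxcl17, a ligand of mucosal tissues, had the largest difference, and without it the numbers were 34 fed and 35 fasted. At sites formed from the PPARα lists alone, 8 of 46 were called in fasted livers only (17.4%, 9.09 to 30.7%), against 36.9% near all protein-coding genes and 35.6% (26.4 to 45.8%) near interleukin and receptor genes. Without Cxcl17 the share was 8 of 42 sites (19.0%, 9.98 to 33.3%), and the share over all genes again lay outside the interval. The sites called in fed livers only numbered 10 of 46 (21.7%, 12.3 to 35.6%), against 12.1%. They included the Cxcl17 sites 1785 bp downstream and 7286 and 20141 bp upstream. This share was not recomputed without Cxcl17, so whether it differs from that of all genes apart from Cxcl17 is not known. Seen from the peaks, 28 of 38 fed PPARα peaks had a fasted peak (73.7%, 58.0 to 85.0%), beside 80.9%, and 28 of 36 fasted peaks had a fed peak (77.8%, 61.9 to 88.3%), beside 58.0%.

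PPARδ peaks near these genes went from 10 fed to 6 fasted, a change of -40.0%, beside -67.4% over all assigned peaks. Only 2 of the 10 fed peaks had a fasted peak (20.0%, 5.67 to 51.0%), beside 21.5%, and the 2 were the Cxcr1 intronic site and the site upstream of Cxcr5. Of the 6 fasted peaks 2 had a fed peak (33.3%, 9.68 to 70.0%), beside 65.9%. The 4 fasted peaks without a fed partner lay at Ccl25, Ccr1, Ccr3 and Cxcl12, at distances of 12296 to 63311 bp from the TSS.

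**Figure D3:**
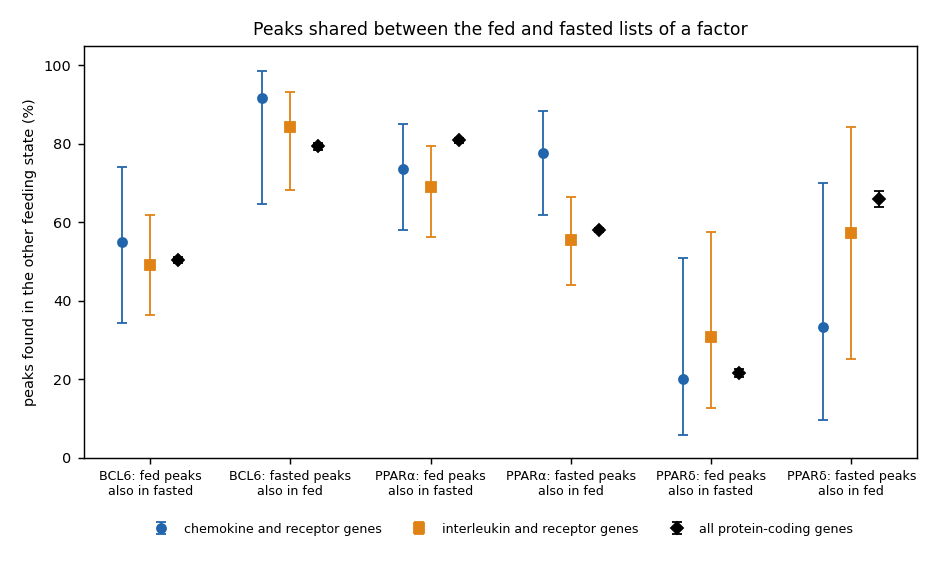
Share of the peaks of a factor in 1 feeding state that had a peak of the same factor in the other state within 200 bp, in percent, for 3 sets of genes (points, with 95% Wilson intervals of counting error as bars). Fasted PPARα peaks near chemokine and receptor genes were shared in 77.8%, against 58.0% over all protein-coding genes, while the wide intervals of PPARδ rest on 10 fed and 6 fasted peaks.

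The overlap between factors was compared next. Joining fed and fasted peaks of BCL6 in C57BL/6 livers gave 21 BCL6 sites at these genes, of which 20 had a PPARα peak of either state within 200 bp (95.2%, 77.3 to 99.2%), beside 78.3% of all BCL6 sites with an assigned gene. The exception was the Cxcl9 intron 1 site. Within a state, 17 of 20 fed BCL6 peaks had a fed PPARα peak (85.0%, 64.0 to 94.8%), beside 70.7%, and 10 of 12 fasted BCL6 peaks had a fasted PPARα peak (83.3%, 55.2 to 95.3%), beside 80.8%. In the other direction 20 of 46 PPARα sites had BCL6 (43.5%, 30.2 to 57.8%), beside 39.1%. Of 14 PPARδ sites 8 had PPARα (57.1%, 32.6 to 78.6%), beside 85.6% of all PPARδ sites, which lay outside the interval, and 15 of 16 PPARδ sites at interleukin and receptor genes had PPARα (93.8%, 71.7 to 98.9%). The 6 PPARδ sites without PPARα lay at Ccl25, Ccr1, Ccr3, Cxcl12, Cxcr1 and Cxcr6, each was called in 1 list, and the nearest to a TSS was 7876 bp away.

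The floxed livers gave a second fed BCL6 list from animals with loxP sites in Bcl6. Of the 20 BCL6 peaks of fed C57BL/6 livers 13 were found in it (65.0%, 43.3 to 81.9%), beside 70.3%, and 13 of its 24 peaks were found in the fed C57BL/6 list (54.2%, 35.1 to 72.1%), beside 60.8%. The floxed list alone among the BCL6 lists held sites at Ccr1l1, Cxcr4, Cxcr5 and Ccl25.

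**Figure D4:**
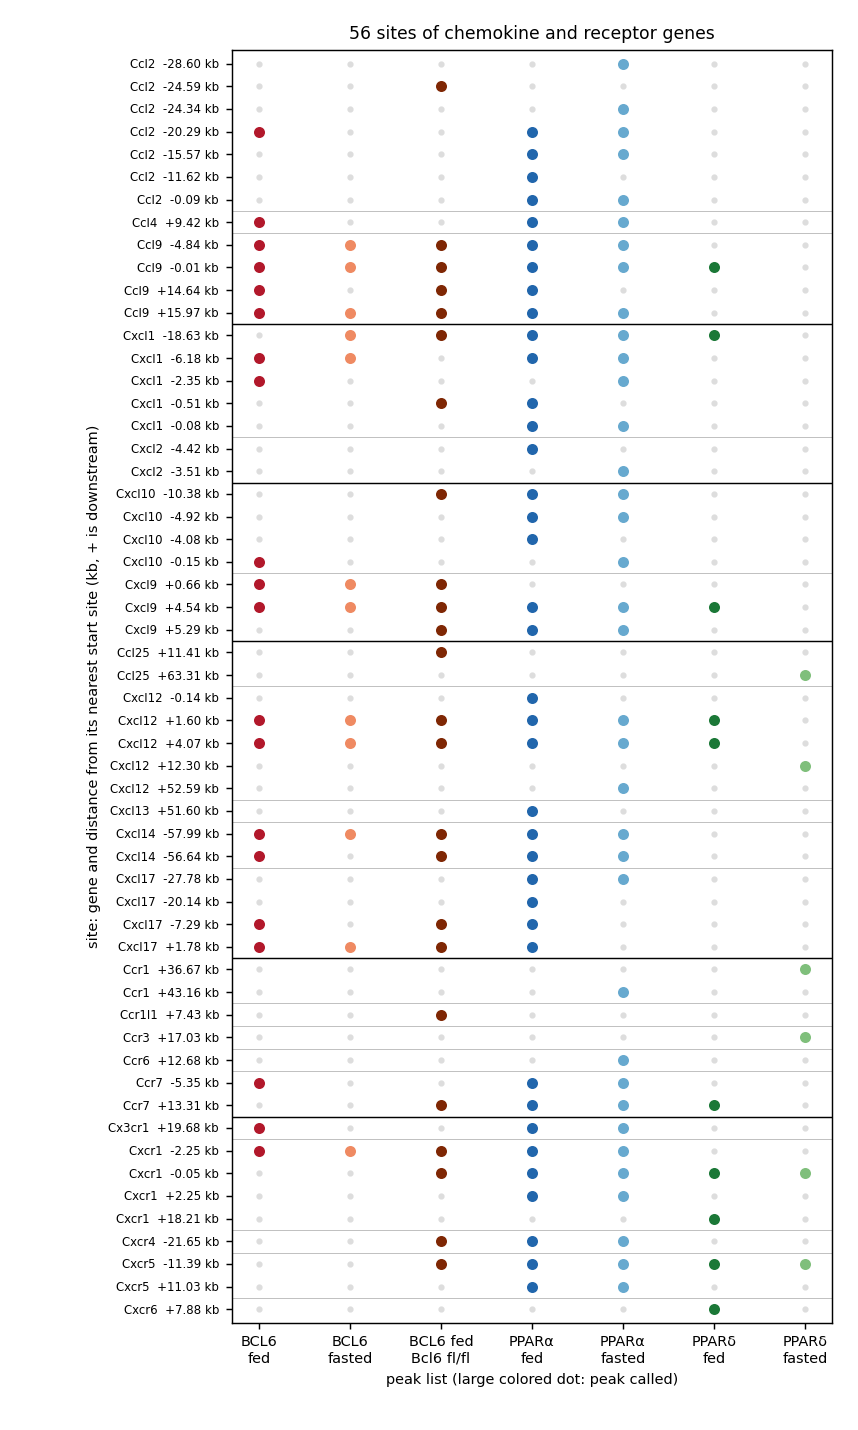
Each of the 56 sites (rows, named by gene and distance from the nearest start site in kb) and the lists that called it (columns, large colored dots). The rows of Ccl9, Cxcl9 and Cxcl12 hold the 4 sites called in 6 lists, all but the fasted PPARδ list, and 21 sites were called in 1 list.

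Across all sites, 21 of 56 were called in 1 list (37.5%), against 39.9% of sites near all protein-coding genes, and 4 were called in 6 lists. None of the 56 was called in all 7 lists, which 1.60% of all sites were. By factor, 19 sites carried PPARα alone, 19 carried BCL6 and PPARα, 8 carried all 3 factors, 6 carried PPARδ alone and 4 carried BCL6 alone, counting the floxed list. No site carried PPARα and PPARδ without BCL6 in any list, a combination found at 3.70% of all sites. This rests on the floxed list. In the C57BL/6 lists the intronic Cxcr1 site, the site upstream of Cxcr5 and the Ccr7 site 13310 bp downstream had PPARα and PPARδ without BCL6. By position, 32 sites were intergenic, 10 lay in the assigned gene itself, 9 in non-coding genes and 5 in another protein-coding gene. Within 10 kb of a TSS lay 27 sites (48.2%, 35.7 to 61.0%), against 48.8% over all protein-coding genes. For fed BCL6 the share was 14 of 20 peaks (70.0%, 48.1 to 85.5%), against 39.7%, although 35.3% of the sequence nearest to chemokine and receptor genes lay within 10 kb of a TSS against 28.5% over all genes. The shares were 9 of 12 fasted BCL6 peaks (75%, 46.8 to 91.1%), against 41.5%, and 13 of 24 floxed BCL6 peaks (54.2%, 35.1 to 72.1%), against 44.0%, which lay inside the interval, as did the share over all genes for each PPARα and PPARδ list.

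Among the 16 inflammatory CC ligands 3 had sites. Ccl2, the main monocyte attractant, had 4 fed and 5 fasted PPARα peaks in the 28601 bp upstream of its TSS. The site nearest its TSS, centered 94 bp upstream at chr11:82035362-82035602, was called for PPARα in both states and for no other factor. Of its 7 sites 1, centered 20292 bp upstream, had a BCL6 peak in fed C57BL/6 livers, and another, 24592 bp upstream, had one in the floxed list alone. The cluster from Ccl2 to Ccl1 holds 6 of the genes, and Ccl7, Ccl11, Ccl12, Ccl8 and Ccl1 had no site. Ccl9, a rodent ligand of Ccr1, had 4 sites with BCL6 in every one. The site on its TSS, chr11:83578502-83578785, was called in all lists but fasted PPARδ, and so held BCL6 and PPARα in both states and PPARδ when fed. Sites 4836 bp upstream and 15972 bp downstream were called in all 5 BCL6 and PPARα lists, and the site 14640 bp downstream in the fed BCL6, floxed BCL6 and fed PPARα lists. Ccl4, a macrophage-derived ligand, had 1 site 9416 bp downstream with BCL6 in the fed list and PPARα in both. Ccl5, a T cell attractant, and Ccl3, a macrophage-derived ligand, had none.

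Among the 5 neutrophil-attracting CXC ligands Cxcl1 and Cxcl2 had sites and Cxcl3, Cxcl5 and Cxcl15 had none. Cxcl1 had 5 sites, all upstream. PPARα was called in both states 78 bp upstream, over the promoter with its NF-κB match, and in the fed list 512 bp upstream, where the floxed list held BCL6. The site 6184 bp upstream held BCL6 and PPARα in both states, and the site 2352 bp upstream held fed BCL6 and fasted PPARα. The site 18630 bp upstream held fasted and floxed BCL6, PPARα in both states and fed PPARδ. Cxcl2 had 2 sites of 1 list each, fed PPARα 4422 bp upstream and fasted PPARα 3514 bp upstream, with no BCL6 and no PPARδ.

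Cxcl9 and Cxcl10, the interferon-induced ligands of Cxcr3, both had sites, 7 in all. At Cxcl9 the intron 1 site at chr5:92327303-92327534, 661 bp downstream of the TSS, was called in the 3 BCL6 lists and in no PPAR list. The site 4536 bp downstream, in the 3′ untranslated region, was called in 6 lists, and its neighbor at 5293 bp in the floxed BCL6 list and both PPARα lists. At Cxcl10 the promoter site centered 150 bp upstream, chr5:92348928-92349152, was called for BCL6 in the fed list and for PPARα in the fasted list. The 3 other Cxcl10 sites held PPARα, at 4916 and 10383 bp upstream in both states, the latter with floxed BCL6, and at 4083 bp upstream in the fed list. The sites upstream of Cxcl10 lie inside introns of Art3, an ADP-ribosyltransferase gene.

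Of the 11 genes grouped as homeostatic ligands 5 had sites. Ccl21d was placed in none of the role groups and had no site. Cxcl12, which is expressed by stromal and endothelial cells and keeps hematopoietic cells in their niche, had 5. Its intron 1 site, 1604 bp downstream, and intron 2 site, 4066 bp downstream, were both called in all lists but fasted PPARδ. Its promoter, 141 bp upstream, was called for PPARα in fed livers alone, and the fasted PPARδ list held a different site 12296 bp downstream. Cxcl17 had 4 sites, 3 of them upstream. All 4 lay in introns of a non-coding gene. For the sites 1785 bp downstream and 7286 and 20141 bp upstream, the next nearest protein-coding gene was Lipe, 12615 to 34541 bp away. PPARα was called at all 4 in fed livers and, in fasted livers, only at the farthest, 27784 bp upstream. BCL6 was called at 1785 bp downstream in all 3 BCL6 lists and at 7286 bp upstream in the fed and floxed lists. Cxcl14, a ligand made by epithelia, had 2 sites in a non-coding gene, 56640 and 57994 bp upstream, both with fed BCL6 and with PPARα in both states. Cxcl13, the B cell attractant, had 1 site, and Ccl25, a thymic and gut ligand, had 2, each called in 1 list. The membrane-anchored ligands Cx3cl1 and Cxcl16 had no site. Cxcl16 could hardly receive a peak, since only 0.0285 kb of sequence was nearest to its TSSs, as for Ccr10 with 0.750 kb.

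Of the 11 CC receptors 5 had sites, 7 in all. BCL6 was called at 1 of them in C57BL/6 livers, 5347 bp upstream of Ccr7, which guides T cells and dendritic cells to lymph nodes, and there PPARα was called in both states. The second Ccr7 site, 13310 bp downstream, held PPARα in both states, fed PPARδ and floxed BCL6. Ccr1, Ccr3, Ccr6 and Ccr1l1 had sites of 1 list each. Ccr2, the receptor of Ccl2, had none, and neither had Ccr4, Ccr8, Ccr9 or Ccr10. Of the 7 CXC and CX3C receptors 5 had sites, 9 in all. Cxcr1, a neutrophil receptor, had 4. The site at chr1:74192769-74193002 held PPARα and PPARδ in both states and floxed BCL6. It lay 49 bp upstream of the start of a predicted transcript and 1738 bp downstream of the start of the curated one, inside the gene. The site 2248 bp upstream held BCL6 and PPARα in both states. Cxcr5, the receptor of Cxcl13, had a site 11392 bp upstream that held the same combination as the intronic Cxcr1 site. Cxcr4, the receptor of Cxcl12, had 1 site 21650 bp upstream with PPARα in both states and floxed BCL6. Cx3cr1, the monocyte receptor of Cx3cl1, had 1 site 19677 bp downstream with fed BCL6 and PPARα in both states. Cxcr2 and Cxcr3, the receptors of the ligands Cxcl1 and Cxcl10, had none.

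Related genes of the pathway were read from a list of further ligands, the Xcl1 receptor Xcr1, Ccrl2 and the atypical receptors Ackr1 to Ackr4, which bind chemokines without signaling through G proteins. Of these 9 genes 4 had sites, 12 in all. Ackr2, a scavenger of inflammatory CC ligands, had 6 sites with 5 fed and 4 fasted BCL6 peaks, 6 fed and 4 fasted PPARα peaks and 3 PPARδ peaks in each state. Ackr3, a scavenger of Cxcl12, had 3 sites, Xcl1 had 2 and Ackr4 had 1. Ackr1, Ccrl2, Pf4, Ppbp and Xcr1 had none.

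Promoters were taken as the 1000 bp before a TSS and the first 100 bp after it. There lay 6 of the 38 fed PPARα peaks (15.8%, 7.44 to 30.4%), against 10.7% over all genes, and 5 of 36 fasted PPARα peaks (13.9%, 6.08 to 28.7%), against 17.1%. Of the BCL6 peaks 2 of 20 fed (10.0%), 1 of 12 fasted (8.33%) and 3 of 24 floxed (12.5%) did, against 5.67%, 6.30% and 8.96% over all genes. Of the PPARδ peaks 2 of 10 fed (20.0%), at Ccl9 and Cxcr1, and 1 of 6 fasted (16.7%), at Cxcr1, did, against 7.80% and 9.73%. The genes with a promoter site were Ccl2, Ccl9, Cxcl1, Cxcl10, Cxcl12 and, by its predicted start alone, Cxcr1.

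In 200 bp windows on the centers of the 56 sites, 8 held a BCL6 element (14.3%, 7.42 to 25.7%), against 10.5% of 35227 sites near all protein-coding genes, and 10 held a DR1 match (17.9%, 10.0 to 29.8%), against 13%. HNF6 matches stood in 4 windows (7.14%) and FOXA matches in 2 (3.57%), against 6.75% and 7.15%. NF-κB matches stood in 5 windows (8.93%, 3.87 to 19.3%), against 1.98% over all sites, which lay outside the interval. These 5 were the promoter sites of Ccl9, Cxcl1 and Cxcl10, the site 4916 bp upstream of Cxcl10 and the site 28601 bp upstream of Ccl2. PPARα was called at all 5, BCL6 at the promoters of Ccl9 and Cxcl10. In the C57BL/6 lists 46 of the 56 sites held PPARα and 21 held BCL6, so most sites of these genes held PPARα with or without such a match. In 33 windows no match to any of the 5 motifs stood, or 58.9% against 65.5%. Among BCL6 peaks the element TTCCTAGAA stood in 4 of 20 fed windows (20.0%, 8.07 to 41.6%), against 16.0% of all fed BCL6 peaks, and in 3 of 12 fasted windows (25.0%, 8.89 to 53.2%), against 16.2%. It stood in 5 of 24 floxed windows (20.8%, 9.24 to 40.5%), against 16.3%. DR1 stood in 6 of 38 fed PPARα windows (15.8%, 7.44 to 30.4%), against 13.7%, and in 7 of 36 fasted ones (19.4%, 9.75 to 35.0%), against 14.4%. For PPARδ it stood in 2 of 10 fed windows (20.0%, 5.67 to 51.0%), against 21.3%, and in 1 of 6 fasted windows (16.7%, 3.0 to 56.4%), against 23.0%.

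The 33 genes on chromosomes without any site included 6 neighbors on chromosome 4, Ccl19, Ccl21a, Ccl21b, Ccl21d, Ccl27a and Ccl27b. Reads that align to more than 1 place were not kept, and near these genes part or all of the sequence is duplicated. Whether this bears on their missing sites was not tested. Of all 75-base stretches within 5 kb of the gene start, 100% for Ccl21b and Ccl27b, 99.6% for Ccl21d, 61.8% for Ccl19, 38.2% for Ccl27a and 31.3% for Ccl21a recurred on chromosome 4. Among the remaining genes Ccr1 had the highest count, 1295 of 9927 stretches. The cluster of Ccl22, Cx3cl1 and Ccl17 on chromosome 8 also had no site. Sites lay at all 8 hepatocyte marker genes examined, among them Alb and Apoa1, beside 49.9% of all protein-coding genes. They also lay at 5 of 6 endothelial, 3 of 5 stellate, 3 of 4 cholangiocyte, 1 of 8 lymphocyte and 1 of 8 macrophage markers. These are small counts, and the part of cell makeup in the missing peaks of leukocyte genes was not tested.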

How the data were processed

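ChIP-seq of BCL6, PPARα and PPARδ from mouse liver was read as 7 peak lists, each made by the authors from 3 samples, 21 in all of the 59 in the series. Per the methods, the authors aligned single-end reads with Bowtie to mm10 keeping uniquely mapped reads, kept 1 read per position, called peaks on pooled samples against input with HOMER and retained those enriched over input by DESeq2. The deposited columns used here are peak starts and ends, other measures being empty, and each list has 1 fixed width of 192 to 222 bp. Read depth is therefore unknown.

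Peaks were assigned to the nearest TSS of 21774 protein-coding RefSeq genes within 100 kb, and peaks with centers within 200 bp counted as shared. Sites join the peaks of all lists in this way. Shares carry 95% Wilson intervals (SciPy), and no test was run. Motifs were searched on both strands in 200 bp windows. RefSeq promoter entries matched 41 of the 55 genes. Genes named are the 12 with most sites (ties kept), those with a promoter peak or a site in all 6 C57BL/6 lists, of which there were none, Ccl2, Ccl5, Cxcl1, Cxcl2, Cxcl9, Cxcl10, Cxcl12, Cx3cl1, Ccr2 and Cxcr4, and members of the role groups. The genes, lists and comparisons were chosen with earlier results of these data known. The scripts' joins, assignments and motif scan were tested on simulated data.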

Additional observations from a re-analysis of the deposited data

How the results depend on the processing

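No paired analysis was possible because each list pools its replicates, and for the same reason no replicate could be left out. The 44 values were recomputed with a reach of 50 or 200 kb, 1 start per gene, all annotated genes competing for peaks, sharing at 100 bp, 400 bp or by overlap, a promoter of 1000 bp to either side, a motif window of 100 bp and 1 fewer mismatch, and, chosen after seeing the data, with curated transcripts alone. Of 199 alternative values 190 stayed within the interval of the share, or within 1.5 times the count, and 9 did not. These limits are wide. PPARα peaks, 38 fed and 36 fasted, numbered 39 and 39 with 1 start per gene and 32 and 26 with all annotated genes competing. The values recomputed did not include the shares of PPARα sites called in 1 feeding state only, of NF-κB matches or of peaks within 10 kb of a TSS. With 1 fewer mismatch the BCL6 element stood in 5.0% of fed, 8.33% of fasted and 4.17% of floxed BCL6 windows, and DR1 in 0.00% of fed and 2.78% of fasted PPARα windows and in 0.00% of fed and 0.00% of fasted PPARδ windows, since the stricter match admits fewer sequences. With a window of 100 bp the fed BCL6 share was 5.0%. With curated transcripts alone 0.00% of fasted PPARδ peaks lay in a promoter, because the Cxcr1 site lost its predicted start. Without read depth or replicate lists, a peak missing from a list cannot be told apart from one just under the threshold of the peak caller.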
